A study of Mus musculus with 4 samples.

Results

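Iron and haem handling was followed through 9 genes, *Cd163*, *Hmox1*, *Blvrb*, *Fth1*, *Ftl1*, *Ncoa4*, *Slc40a1*, *Tfrc* and *Slc11a1*, taken by name from a count table of 49315 genes. Macrophages take up haemoglobin and haem, open the haem ring, and either keep the freed iron in ferritin or pass it out of the cell through ferroportin. Cells that need iron take it up as transferrin through the transferrin receptor. In the lung this handling is best known from macrophages, which meet red cells after bleeding or injury.

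RNA was sequenced from cells sorted from mouse lungs as type 2 innate lymphoid cells (ILC2s), lymphocytes without antigen receptors. The groups were WT mice given PBS (PBS-WT), *Hps1*-/- mice given PBS (PBS-HPS1), WT mice given bleomycin (BLEO-WT) and *Hps1*-/- mice given bleomycin (BLEO-HPS1), with 1 library per group and 4 in all. Bleomycin is a drug that injures the lung and brings on fibrosis, and loss of *Hps1* causes a form of Hermansky-Pudlak syndrome. All mice had a C57BL/6 background, and the mutation is carried by every cell of the *Hps1*-/- animals. The study used bleomycin by intraperitoneal injection, at 25 U/kg daily for 6 days in mice 10 weeks old that were killed on day 12, and also by the intratracheal route, and which of these gave the sequenced cells is not given in the sources used here. Cells were gated as Lineage-Thy1.2+ICOS+T1/ST2+, with CD3, CD11b, CD45R/B220, Ly76, Ly6G and Ly6C as the lineage markers, reached a stated purity of at least 98%, and were cultured with IL-2 before RNA was extracted, and the number of mice behind a library is not given in the sources used here. The libraries were made from 22405 cells for PBS-WT and 38873 for PBS-HPS1, but from 84166 cells for BLEO-WT and 128647 for BLEO-HPS1, so the number of cells differed together with the groups.

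PBS-WT had 72513619 counts in total and PBS-HPS1 had 77703133, while BLEO-WT had 87638154 and BLEO-HPS1 had 77428740. Levels are given as CPM, counts scaled to a common library size that was adjusted with TMM factors, and a level of 3 counts was 0.0303 to 0.0475 CPM. Ratios are of log2 CPM, with 95% exact Clopper-Pearson intervals, which cover only counting error. Since each group is a single library, no difference has a replicate check and no p-value is given. The 14840 genes with at least 1 CPM in at least 1 library were tested against a 2-fold threshold, a log2 ratio of 1 in size. All 9 iron and haem handling genes passed this filter, each with at least 1 CPM in all 4 libraries. With total counts alone in place of TMM factors, the median log2 ratio of all tested genes moved from -0.19 to 0.05 in PBS-HPS1 against PBS-WT, from 0.09 to -0.17 in BLEO-WT against PBS-WT, from 0.25 to -0.39 in BLEO-HPS1 against PBS-HPS1 and from -0.04 to -0.17 in BLEO-HPS1 against BLEO-WT, and every ratio below moves with that choice.

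The labelled cell type was compared with its markers. Of 14 ILC2 genes, 13 were analysed and none of these was at 0 in any library, but *Il5*, *Il13* and *Ptgdr2* were at or below 1.43 CPM in all 4. The 13 genes summed to 769 CPM in PBS-WT and 696 in PBS-HPS1, against 952 in BLEO-WT and 1049 in BLEO-HPS1, with *Thy1* the most abundant on average. Genes of other cells were also counted in every library. The 14 alveolar macrophage genes, led by *Chil3*, summed to 7689, 6860, 5873 and 3493 CPM in the same order. The 16 monocyte and interstitial macrophage genes, led by *Cd14*, summed to 2988, 2065, 9084 and 9750 CPM. None of these macrophage genes was at 0 in any library. Summed per kb of transcript, the ILC2 genes were at 274 to 576 CPM per kb, the alveolar macrophage genes at 2006 to 4724 and the monocyte and interstitial macrophage genes at 995 to 6715. The libraries thus held RNA of genes that mark macrophages at a higher summed level than RNA of genes that mark ILC2s. The gate should remove cells with CD11b, Ly6G or Ly6C, which most monocytes and neutrophils carry, and cells with Ly76, which marks the red cell lineage. In such bulk RNA, fewer cells of a type and less RNA per cell cannot be told apart.

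*Cd163* (ENSMUSG00000008845, chromosome 6 of GRCm38 from 124304656 to 124330527) encodes the macrophage receptor that takes up haemoglobin bound to haptoglobin. Its level was 33.4 CPM in PBS-WT and 24.8 in PBS-HPS1, against 134 in BLEO-WT and 27.4 in BLEO-HPS1. BLEO-WT stood apart, and the other 3 libraries lay close together. For BLEO-WT against PBS-WT the log2 ratio was 1.998 (1.94 to 2.06), and 98.8% of the tested genes had a lower ratio. In *Hps1*-/- mice bleomycin against PBS gave 0.14 (0.05 to 0.23), which turned to -0.50 with total counts alone. Between the bleomycin libraries it was -2.29 (-2.36 to -2.21) for BLEO-HPS1 against BLEO-WT, with 0.256% of the tested genes lower. The bleomycin ratio in *Hps1*-/- mice minus that in WT mice was -1.86 on the log2 scale, or -1.41 with the correction described below, and this difference was not tested. *Cd163* is among the genes that the study displayed from these same libraries, so its pattern is a description and no independent evidence.

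The monocyte and interstitial macrophage genes moved with *Cd163* in WT mice but not between the bleomycin libraries. In BLEO-WT against PBS-WT, 10 of these 16 were past 2-fold upwards and 1 downwards, with a median log2 ratio of 1.34. Of all tested genes, 5.28% were higher and 8.22% lower in this comparison. In BLEO-HPS1 against PBS-HPS1, 12 were higher and 1 lower, with a median of 1.43, while *Cd163* was at 0.14. Here 26.2% of all tested genes were higher and 19.6% lower. In BLEO-HPS1 against BLEO-WT, 1 was higher and 3 lower, with a median of -0.11, while *Cd163* was at -2.29. Here 6.72% of all tested genes were higher and 10.3% lower. With the correction described below, 8 of the 16 were higher and 1 lower in the first comparison, and 10 and 1 in the second. In the third, none was higher and 2 were lower with it. The alveolar macrophage genes had medians of -0.88, -1.37 and -0.65 in these 3 comparisons, which share libraries. What part either cell type had in the *Cd163* ratios was not tested. *Hp*, which encodes haptoglobin, was at 196 CPM in PBS-WT and 74.4 in PBS-HPS1, against 153 in BLEO-WT and 176 in BLEO-HPS1, an order unlike that of *Cd163*.

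**Figure D1:**
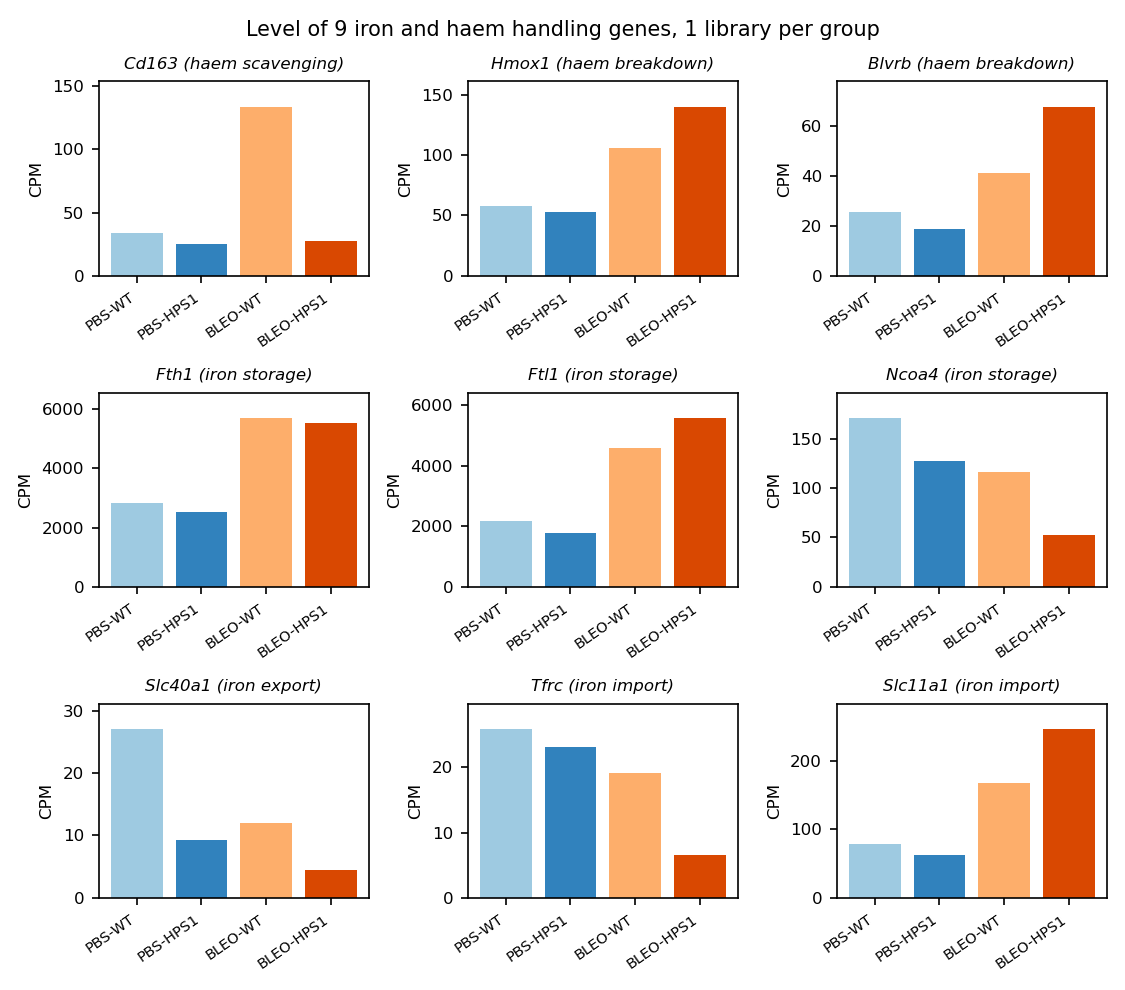
Level of each of the 9 genes (vertical axes, CPM, each from 0) in the 4 libraries (horizontal axes), with 1 bar per library and no replicates. *Cd163* stands out in BLEO-WT at 134 CPM, *Hmox1*, *Blvrb*, *Fth1*, *Ftl1* and *Slc11a1* are higher in both bleomycin libraries than in both PBS libraries, and *Slc40a1* is highest in PBS-WT at 27.1 CPM.

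*Hmox1* (ENSMUSG00000005413, chromosome 8 from 75093621 to 75100589) encodes haem oxygenase 1, the inducible enzyme that opens haem and frees its iron. It was at 57.8 CPM in PBS-WT and 52.7 in PBS-HPS1, against 106 in BLEO-WT and 140 in BLEO-HPS1. *Blvrb* (ENSMUSG00000040466, chromosome 7 from 27447978 to 27466144), which encodes a biliverdin reductase, was at 25.5, 18.8, 41.2 and 67.8 CPM in the same order. Both genes were higher in both bleomycin libraries than in both PBS libraries. Bleomycin against PBS gave a log2 ratio for *Hmox1* of 0.87 (0.82 to 0.93) in WT and 1.41 (1.36 to 1.46) in *Hps1*-/- mice, the latter 0.76 and short of the threshold with total counts alone. For *Blvrb* it was 0.69 (0.61 to 0.78) in WT and 1.85 (1.77 to 1.93) in *Hps1*-/- mice. Both passed the 2-fold threshold in *Hps1*-/- and not in WT mice, a difference that was not tested. In BLEO-HPS1 against BLEO-WT the ratio was 0.40 for *Hmox1* and 0.72 for *Blvrb*, and with the correction for GC content and length described below these were -0.07 and -0.005. For *Blvrb* the sign depended on the centring of the correction, being 0.06 with another that was chosen after seeing the data. Of the 16 monocyte and interstitial macrophage genes, 10 were past 2-fold upwards with bleomycin and 1 downwards in WT mice. In *Hps1*-/- mice 12 were past it upwards and 1 downwards. Of all tested genes, 5.28% were past it upwards and 8.22% downwards in WT mice, against 26.2% and 19.6% in *Hps1*-/- mice. The part of the monocyte and interstitial macrophage genes in the *Hmox1* and *Blvrb* ratios was not tested.

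These ratios need the base composition of the transcripts beside them. In BLEO-WT against PBS-WT the median log2 ratio was -0.32 over the 2551 genes with a GC content of 40% to 45% and 0.31 over the 2980 genes at 55% to 60%. These medians were -0.87 and 0.98 in BLEO-HPS1 against PBS-HPS1, and -0.67 and 0.42 in BLEO-HPS1 against BLEO-WT. Between the PBS libraries they were close, at -0.17 and -0.23. Genes are not independent replicates, and these values describe the libraries. The GC content was 53.3% for *Hmox1* and 57.1% for *Blvrb*, against 48.3% for *Cd163*. Subtracting a loess fit on GC content and length gave bleomycin ratios of 0.65 in WT and 0.60 in *Hps1*-/- mice for *Hmox1*, and of 0.37 and 0.63 for *Blvrb*. So corrected, neither gene passed the threshold in either genotype. For *Cd163* the corrected values were 2.04 in WT and 0.63 in *Hps1*-/- mice, and -1.91 in BLEO-HPS1 against BLEO-WT. The *Cd163* ratios of BLEO-WT to PBS-WT and of BLEO-HPS1 to BLEO-WT thus stayed past the threshold with the correction.

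**Figure D2:**
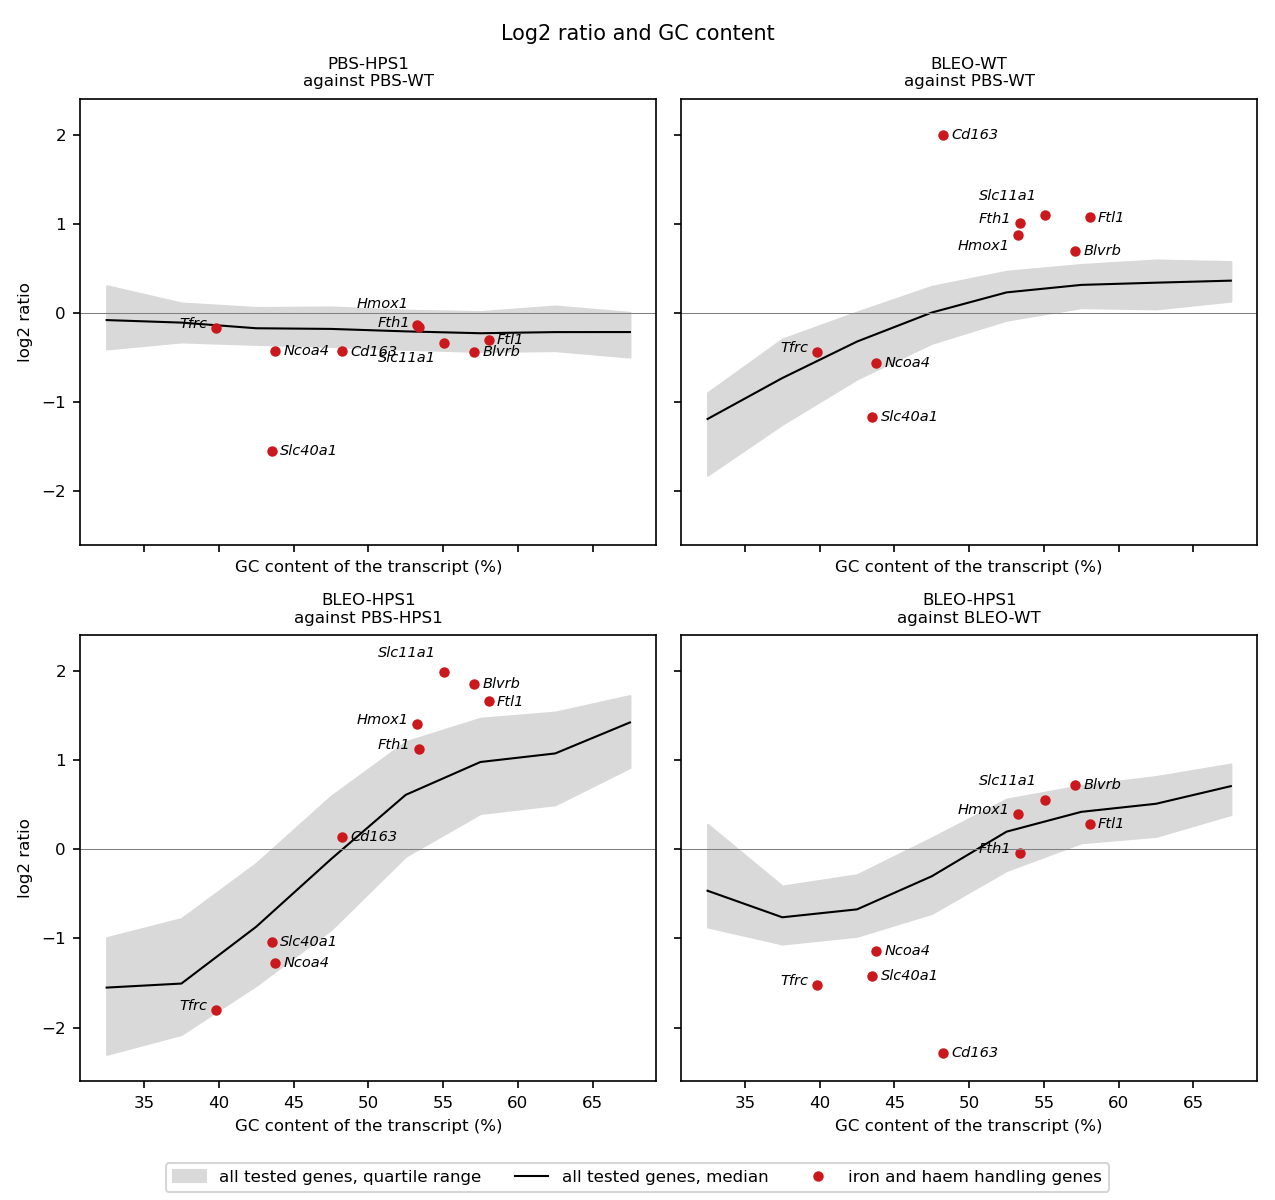
Log2 ratio (vertical axes) against the GC content of the transcript in percent (horizontal axes) in the 4 comparisons, with the median (line) and quartile range (grey) of all tested genes in bins 5% wide, and the 9 genes as points. In the 3 panels with a bleomycin library in the numerator the line climbs with GC content over most of its range, and *Cd163* at 48.3% lies far above it in BLEO-WT against PBS-WT and far below it in BLEO-HPS1 against BLEO-WT.

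Ferritin, the shell that holds stored iron, is built of a heavy chain from *Fth1* (ENSMUSG00000024661, chromosome 19 from 9980598 to 9985098) and a light chain from *Ftl1* (ENSMUSG00000050708, chromosome 7 from 45457944 to 45459884). *Fth1* was at 2838 CPM in PBS-WT and 2541 in PBS-HPS1, against 5712 in BLEO-WT and 5549 in BLEO-HPS1. *Ftl1* was at 2184, 1767, 4589 and 5576 CPM in the same order. Both chains were higher in both bleomycin libraries than in both PBS libraries. Together they took 0.540% of all counts in PBS-WT (0.538% to 0.542%), 0.549% in PBS-HPS1 (0.547% to 0.551%), 0.922% in BLEO-WT (0.920% to 0.924%) and 0.908% in BLEO-HPS1 (0.906% to 0.910%). By CPM per kb of transcript, *Fth1* ranked between 4 and 7 and *Ftl1* between 7 and 13 among 48970 genes in the 4 libraries. These were the most abundant of the 9 genes, while the next by mean CPM per kb, *Slc11a1* at 60.0 and *Hmox1* at 56.8, stood far below *Ftl1* at 3645 and *Fth1* at 4478.

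BLEO-WT against PBS-WT gave a log2 ratio of 1.009 (1.002 to 1.016) for *Fth1* and 1.07 (1.06 to 1.08) for *Ftl1*. In *Hps1*-/- mice bleomycin against PBS gave 1.13 (1.12 to 1.13) for *Fth1* and 1.66 (1.65 to 1.67) for *Ftl1*. *Fth1* in WT mice lay at the edge of the threshold and fell short of it at 0.99 with DESeq2 size factors. With total counts alone the WT values were 0.74 for *Fth1* and 0.81 for *Ftl1*, both short of it, and *Fth1* was at 0.48 in *Hps1*-/- mice. Both chains also fell short in WT mice, and *Fth1* in *Hps1*-/- mice, when the TMM factors were computed again from only the genes with at least 10 counts in every library, a change of scaling. After subtracting the loess fit, the WT values were 0.73 for *Fth1* and 0.72 for *Ftl1*, and the *Hps1*-/- values were 0.04 and 0.39. The ratio of *Fth1* to *Ftl1* per kb was 1.35 in PBS-WT and 1.498 in PBS-HPS1, against 1.297 in BLEO-WT and 1.04 in BLEO-HPS1. Both chains were nearest to equal in BLEO-HPS1. Ratios of BLEO-HPS1 to PBS-HPS1 rose with GC content, and *Ftl1* has a GC content of 58.1% against 53.4% for *Fth1*. With the correction the ratio of BLEO-HPS1 to PBS-HPS1 was still higher for *Ftl1*, at 0.39, than for *Fth1*, at 0.04. The part of GC content in this was not tested. The higher levels of both chains with bleomycin also came with a higher sum of the monocyte and interstitial macrophage genes, whose part was not tested.

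Reads of *Ftl1* may be shared with copies. *Ftl1-ps1*, named as a pseudogene, had 485 counts in PBS-WT and 512 in PBS-HPS1, and 978 in BLEO-WT and 1079 in BLEO-HPS1, against 170226, 174986, 359800 and 352239 for *Ftl1*. An antisense gene, *Gm10252*, overlaps 355 exon bases of *Ftl1* and had 822, 1009, 1564 and 1367 counts. Since the counting by the authors is not described in the sources used here, reads of such partners cannot be told apart, and their counts were small beside those of *Ftl1*.

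*Ncoa4* (ENSMUSG00000056234, chromosome 14 from 32159865 to 32179855) encodes the receptor that carries ferritin to autophagy, so that its iron is released. Its level was 171 CPM in PBS-WT and 128 in PBS-HPS1, against 117 in BLEO-WT and 52.8 in BLEO-HPS1. PBS-WT was the highest library and BLEO-HPS1 the lowest. Bleomycin against PBS gave a log2 ratio of -0.56 (-0.60 to -0.52) in WT and -1.27 (-1.33 to -1.22) in *Hps1*-/- mice, and BLEO-HPS1 against BLEO-WT gave -1.14 (-1.20 to -1.08). *Ncoa4* has a GC content of 43.8% and a transcript of 4065 bases, and with the correction these values were -0.22, -0.23 and -0.48, all short of the threshold. In these comparisons the alveolar macrophage genes had median log2 ratios of -0.88, -1.37 and -0.65, or -0.63, -1.255 and -0.63 with the correction. None of these genes was at least 2-fold higher, where 5.28%, 26.2% and 6.72% of all tested genes were. The 12 tested ILC2 genes had medians of -0.53, -0.85 and -0.17, or -0.48, -0.15 and 0.03 with the correction. The monocyte and interstitial macrophage genes had medians of 1.34, 1.43 and -0.11. What part any of these cell types had in the *Ncoa4* ratios was not tested.

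*Slc40a1* (ENSMUSG00000025993, chromosome 1 from 45908068 to 45926523) encodes ferroportin, the exporter of iron from cells. It was at 27.1 CPM in PBS-WT and 9.22 in PBS-HPS1, against 12.03 in BLEO-WT and 4.48 in BLEO-HPS1. PBS-WT was the highest library and BLEO-HPS1 the lowest, and in both treatments the *Hps1*-/- library was below the WT library. The log2 ratio of PBS-HPS1 to PBS-WT was -1.55 (-1.67 to -1.44), with 1.40% of the tested genes lower. This was past 2-fold, and the correction left it at -1.55. BLEO-HPS1 against BLEO-WT gave -1.42 (-1.62 to -1.23) and became -0.81 with the correction. With bleomycin against PBS it was -1.17 (-1.28 to -1.06) in WT and -1.04 (-1.24 to -0.85) in *Hps1*-/- mice, or -0.84 and -0.08 with the correction. A correction with another centring, chosen after seeing the data, turned the last to 0.09.

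Neutrophil genes moved with *Slc40a1* in 3 of the 4 comparisons, which share libraries. The 11 neutrophil genes, led by *S100a9*, summed to 1550 CPM in PBS-WT and 414 in PBS-HPS1, against 834 in BLEO-WT and 389 in BLEO-HPS1. None was at 0 in any library, and *Elane* was at 2 counts in BLEO-WT. All 10 of those tested were at least 2-fold lower in PBS-HPS1 than in PBS-WT, with a median log2 ratio of -2.34. In BLEO-WT against PBS-WT 4 were lower and none higher, with a median of -0.83. Between the bleomycin libraries 5 were lower in BLEO-HPS1 and 1 higher, with a median of -0.97, or 7 lower and none higher with the correction. In BLEO-HPS1 against PBS-HPS1 1, *Cxcr2*, was lower and 3 were higher, with a median of 0.44 where *Slc40a1* was at -1.04, but with the correction this median was 0.11 beside -0.08 for *Slc40a1*. In PBS-HPS1 against PBS-WT, 4 of the 16 monocyte and interstitial macrophage genes were at least 2-fold lower and none was higher, with a median of -0.84. With the correction, 2 of these were lower and none was higher. The alveolar macrophage genes had medians of -0.88 in BLEO-WT against PBS-WT, -1.37 in BLEO-HPS1 against PBS-HPS1 and -0.65 in BLEO-HPS1 against BLEO-WT. Of these 14 genes, 6 were at least 2-fold lower in the first, 9 in the second and 3 in the third, and none was higher. Between the PBS libraries their median was -0.16, with none past 2-fold. Beside these counts, 3.11% of all tested genes were at least 2-fold lower in PBS-HPS1 against PBS-WT and 8.22% in BLEO-WT against PBS-WT. The shares lower were 19.6% in BLEO-HPS1 against PBS-HPS1 and 10.3% in BLEO-HPS1 against BLEO-WT. The shares higher were 2.16%, 5.28%, 26.2% and 6.72% in the same order. With the correction, 4.67% were lower and 5.08% higher in BLEO-HPS1 against BLEO-WT. Neutrophils carry CD11b and Ly6G, on which the gate selects against them. The part of neutrophil or macrophage RNA in the *Slc40a1* ratios was not tested. Among 10201 genes with at least 10 CPM in some library, the profile over the 4 libraries nearest to that of *Slc40a1* was that of *Cxcr2*, 1 of the neutrophil genes, with a root mean square difference of 0.13 in centred log2 CPM. *Nlrp12* at 0.19, *Trim30b* at 0.22, *Lpl* at 0.23 and *Alox15* at 0.25 followed.

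*Tfrc* (ENSMUSG00000022797, chromosome 16 from 32608920 to 32632794) encodes the transferrin receptor, which brings iron into cells. Its level was 25.9 CPM in PBS-WT and 23.1 in PBS-HPS1, against 19.1 in BLEO-WT and 6.62 in BLEO-HPS1. BLEO-HPS1 was low, and the other 3 libraries lay closer together. BLEO-HPS1 against PBS-HPS1 gave a log2 ratio of -1.80 (-1.96 to -1.65). It was -1.52 (-1.69 to -1.37) for BLEO-HPS1 against BLEO-WT and -0.44 (-0.54 to -0.35) for BLEO-WT against PBS-WT. *Tfrc* has the lowest GC content of the 9 genes, 39.8%, and the longest transcript, 4890 bases. With the correction the same ratios were -0.16, -0.72 and 0.26, so none was past the threshold and the last changed its sign, and the first turned to 0.02 with the other centring, chosen after seeing the data. In the same order, the alveolar macrophage genes had median log2 ratios of -1.37, -0.65 and -0.88, or -1.255, -0.63 and -0.63 with the correction. None of these genes was at least 2-fold higher, where 26.2%, 6.72% and 5.28% of all tested genes were. The 12 tested ILC2 genes had medians of -0.85, -0.17 and -0.53, or -0.15, 0.03 and -0.48 with the correction. The monocyte and interstitial macrophage genes had medians of 1.43, -0.11 and 1.34. What part any of these cell types had in the *Tfrc* ratios was not tested.

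*Slc11a1* (ENSMUSG00000026177, chromosome 1 from 74375195 to 74386062) encodes NRAMP1, which moves iron and other divalent metals out of phagosomes into the cytosol of macrophages. It was at 78.6 CPM in PBS-WT and 62.2 in PBS-HPS1, against 168 in BLEO-WT and 247 in BLEO-HPS1. Both bleomycin libraries were above both PBS libraries, with BLEO-HPS1 highest. Bleomycin against PBS gave a log2 ratio of 1.10 (1.05 to 1.14) in WT and 1.99 (1.95 to 2.03) in *Hps1*-/- mice. With the correction these were 0.85 and 1.29, so the second stayed past the threshold, and with total counts alone the WT value was 0.83. The monocyte and interstitial macrophage genes, whose sums and counts are given above, were higher in the same libraries, and their part was not tested.

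In PBS-HPS1 against PBS-WT, 1 of the 9 genes was past 2-fold, where 5.27% of the 14840 tested genes were, 2.16% higher and 3.11% lower. It was *Slc40a1*, which was lower, and none was higher. All 9 ratios were below 0, but with total counts alone *Hmox1* was at 0.11, *Fth1* at 0.09 and *Tfrc* at 0.08, and with the correction *Fth1* was at 0.01. The median log2 ratio was -0.34 over the 9 genes and -0.19 over all tested genes. In BLEO-WT against PBS-WT, 5 of the 9 were past 2-fold against 13.5% of all tested genes. Of these, *Cd163*, *Fth1*, *Ftl1* and *Slc11a1* were higher, as were 5.28% of all tested genes, and *Slc40a1* was lower, as were 8.22%. The median was 0.87 over the 9 and 0.09 over all tested genes. With the correction 1 of the 9, *Cd163*, was past 2-fold, against 10.8% of all genes corrected, with a median over the 9 of 0.65.

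In BLEO-HPS1 against PBS-HPS1, 8 of the 9 genes were past 2-fold, all but *Cd163*, but so were 45.9% of all tested genes. There were 5 higher, against 26.2% of all tested genes, and 3 lower, against 19.6%. The median was 1.13 over the 9 and 0.25 over all tested genes. With the correction 1 of the 9, *Slc11a1*, was past 2-fold, against 23.7% of all genes corrected, and the median over the 9 was 0.39. In BLEO-HPS1 against BLEO-WT, 4 of the 9 were past 2-fold, against 17.0% of all tested genes. None was higher, where 6.72% of all tested genes were, and *Cd163*, *Ncoa4*, *Slc40a1* and *Tfrc* were lower, where 10.3% were. The median was -0.04 over the 9 and over all tested genes alike, with DESeq2 size factors it was 0.02 over both, and with the correction it was -0.48 over the 9 and -0.06 over all genes. With the correction *Cd163* alone of the 9 was past 2-fold, against 9.75% of all genes corrected. Of all genes past 2-fold, 41.0% were higher in PBS-HPS1 than in PBS-WT, or 68.4% with total counts alone. BLEO-WT against PBS-WT had 39.1% higher and 19.1% with total counts, BLEO-HPS1 against PBS-HPS1 had 57.2% and 20.8%, and BLEO-HPS1 against BLEO-WT had 39.5% and 24.9%. The comparisons share libraries, so their values are not independent of each other.

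**Figure D3:**
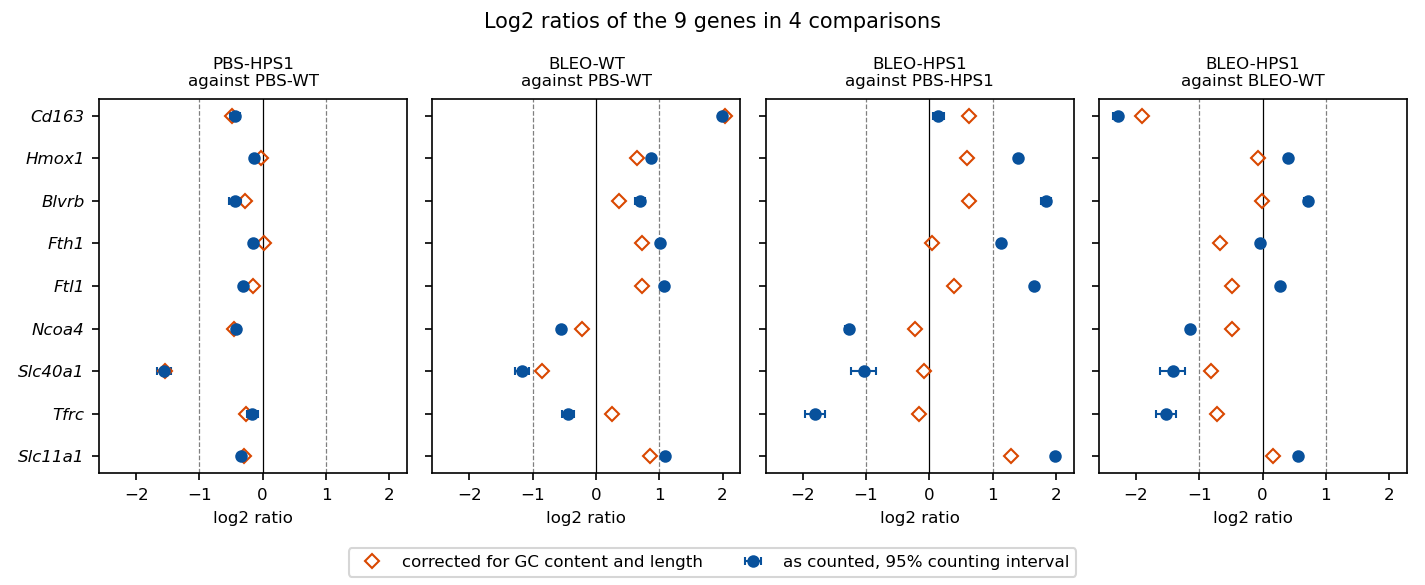
Log2 ratios (horizontal axes) of the 9 genes (rows) in the 4 comparisons, as counted with 95% counting intervals (filled circles) and with the correction for GC content and length (open diamonds), with dashed lines at the 2-fold threshold. With the correction, the points past a dashed line are *Slc40a1* in PBS-HPS1 against PBS-WT, *Cd163* in BLEO-WT against PBS-WT and in BLEO-HPS1 against BLEO-WT, and *Slc11a1* in BLEO-HPS1 against PBS-HPS1.

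A wider list of 78 other iron and haem genes, of which 69 were tested, was set beside the 9. In PBS-HPS1 against PBS-WT, 1 was past 2-fold upwards and 3 downwards, where 2.16% and 3.11% of all tested genes were, with a median log2 ratio of -0.23. The counts were also 1 and 3 with the correction, where 2.19% and 2.87% of all genes corrected were. The higher gene was *Scara5*, which encodes a receptor for ferritin, at 1.87 CPM in PBS-WT and 5.55 in PBS-HPS1, named after its values were seen and itself picked by the study from these libraries. The 3 lower genes were *Steap4*, which encodes a metalloreductase, at 27.7 against 4.35 CPM, *Lcn2*, which encodes a protein that binds iron-loaded siderophores, at 56.2 against 13.8, and *Hp* at 196 against 74.4 CPM, each value in PBS-WT before that in PBS-HPS1. The neutrophil genes, of which all 10 tested were at least 2-fold lower in the same comparison, moved with these 3, and their part was not tested. In BLEO-WT against PBS-WT, 3 were higher and 2 lower, where 5.28% and 8.22% of all tested genes were, with a median of 0.30. Besides *Steap3* and *Flvcr2* these were *Scara5*, at 6.75 CPM in BLEO-WT, and *Slc46a1*, at 4.09, which were higher, and *Spic*, at 0.599, which was lower, all 3 named after their values were seen. The log2 ratio of *Slc46a1* was 1.01, and 0.74 with the correction. So corrected, 4 genes of the list were higher and 2 lower, where 4.69% and 6.12% of all genes corrected were, with a median of 0.14. *Steap3*, which encodes an endosomal metalloreductase that acts on iron from transferrin, was at 44.9 CPM in BLEO-WT and 12.9 in PBS-WT, and *Flvcr2*, which encodes a membrane transporter, was at 32.5 and 71.4 CPM.

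In BLEO-HPS1 against PBS-HPS1, 22 of the 69 were higher and 6 lower, where 26.2% and 19.6% of all tested genes were, with a median of 0.63. With the correction 11 were higher and 2 lower, where 13.9% and 9.77% of all genes corrected were, with a median of 0.23, so the share higher was near that of all genes. *Steap3* had the largest rise, to 61.1 from 7.26 CPM, a log2 ratio of 3.07 that was 3.03 with the correction. Of the genes with at least 10 CPM in a library, *Scara5* followed at 41.7 against 5.55 CPM, and *Hfe*, which encodes a partner of the transferrin receptor, at 96.4 against 25.3. *Ireb2*, which encodes an iron regulatory protein, was at 13.3 CPM in BLEO-HPS1 and 50.3 in PBS-HPS1, with a log2 ratio of -1.92 that was -0.11 with the correction. *Flvcr2* was at 21.1 against 72.9 CPM, and *Bach1*, which encodes a repressor of *Hmox1*, at 49.1 against 145, with a log2 ratio of -1.56 that was -0.67 and short of the threshold with the correction. In BLEO-HPS1 against BLEO-WT, 2 of the 69 were higher and 6 lower, where 6.72% and 10.3% of all tested genes were, with a median of 0.16. With the correction 3 were higher and 1 lower, where 5.08% and 4.67% of all genes corrected were, and the median turned to -0.10. The higher genes were *Scara5*, at 41.7 against 6.75 CPM, and *Alas2*, the erythroid enzyme of haem synthesis, at 25.5 against 10.2 CPM, whose log2 ratio of 1.32 fell short of the threshold at 0.96 with the correction. The largest decreases were in *Bach1*, with 140 CPM in BLEO-WT, *Flvcr1*, at 11.5 against 28.6, and *Ireb2*, with 31.4 CPM in BLEO-WT, and with the correction these were log2 ratios of -0.91, -0.75 and -0.41. Fibroblast genes, 12 led by *Col1a1* and none at 0, moved with *Scara5*, summing to 261 CPM in PBS-WT and 409 in PBS-HPS1, against 691 in BLEO-WT and 3197 in BLEO-HPS1. Between the bleomycin libraries 11 of the 12 were at least 2-fold higher in BLEO-HPS1, with a median of 2.04. Of all tested genes, 6.72% were at least 2-fold higher there. Negative selection for ILCs and the gate on ICOS and T1/ST2 should remove fibroblasts, and the part of such RNA in the *Scara5* ratios was not tested.

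The genes named for the highest mean CPM of their role, a level not scaled by transcript length, were *Lrp1* (1826), *Tmem14c* (147), *Trf* (248), *Pcbp2* (407), *App* (1209), *Zfp36* (1722) and *Iscu* (93.7). Of these, *Tmem14c* and *Iscu* were past 2-fold in 1 of the 4 comparisons, BLEO-HPS1 against PBS-HPS1, at log2 ratios of 1.35 and 1.17, and at 0.33 and -0.001 with the correction. Haem synthesis, with 14 genes, had 7 at least 2-fold higher and none lower in BLEO-HPS1 against PBS-HPS1, where 26.2% and 19.6% of all tested genes were, and with the correction 2 were higher, near the 13.9% of all genes corrected that were. The erythroid genes, 11 led by *Hbb-bs*, summed to 214 CPM in PBS-WT and 267 in PBS-HPS1, against 261 in BLEO-WT and 747 in BLEO-HPS1. *Rhag* was at 0 in PBS-WT, BLEO-WT and BLEO-HPS1 and had 3 counts in PBS-HPS1, and the part of erythroid RNA in these values, from cells that the gate on Ly76 and the lysis of red cells in lung suspensions should remove, was not tested.

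The other members' nearest profiles among the same 10201 genes were *Lmln* for *Cd163*, at a root mean square difference of 0.22, *Galnt2* for *Hmox1* at 0.02, *Vmac* for *Blvrb* at 0.02, *Aifm2* for *Fth1* at 0.02 and *Rnh1* for *Ftl1* at 0.02. For *Ncoa4* it was *Snx10* at 0.04, for *Tfrc* *Sowahc* at 0.03 and for *Slc11a1* *Pltp* at 0.02. *Lmln* and *Fnip2*, the nearest 2 to *Cd163*, are also among the genes the study displayed.

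Iron also acts on several of these transcripts through iron-responsive elements, hairpins bound by iron regulatory proteins that hold back translation from a 5′ UTR and protect the RNA from a 3′ UTR. The UTRs were searched for the letters C, 5 bases, CAGTGN and 5 bases able to pair with the first 5, counting G with T as a pair, on the transcript strand. A match was found in the 5′ UTR of *Fth1*, *Ftl1* and *Slc40a1* and at 4 places in the 3′ UTR of *Tfrc*, and none in the UTRs of the other 5 genes. Of all genes searched, 21 of 20115 (0.104%) had a match in the 5′ UTR and 111 of 20690 (0.537%) in the 3′ UTR. The windows of 29 bases, from GENCODE M21 transcripts on GRCm38, are shown because both ferritin chains, ferroportin and the transferrin receptor have them, with the CAGTGN loop in capitals.
*Fth1*, chr19:9982732-9982760, plus strand: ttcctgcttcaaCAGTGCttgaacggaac
*Ftl1*, chr7:45459779-45459807, minus strand: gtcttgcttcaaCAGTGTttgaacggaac
*Slc40a1*, chr1:45925465-45925493, minus strand: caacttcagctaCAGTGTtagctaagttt
*Tfrc*, chr16:32631219-32631247, plus strand: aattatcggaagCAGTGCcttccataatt
*Tfrc*, chr16:32631598-32631626, plus strand: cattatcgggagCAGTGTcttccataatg
*Tfrc*, chr16:32631663-32631691, plus strand: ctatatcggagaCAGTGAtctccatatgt
*Tfrc*, chr16:32631710-32631738, plus strand: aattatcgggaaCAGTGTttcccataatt
A match describes these letters and is not a measured site. The genes with a match did not share a profile, since *Fth1* and *Ftl1* were higher and *Slc40a1* was lower in BLEO-WT than in PBS-WT. RNA levels do not show translation, on which the 5′ elements act.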

How the data were processed

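The values deposited by the authors are raw read counts for each Ensembl gene, from total RNA made into libraries with a SMARTER mRNA kit. The aligner, counting tool, strand setting and genome build are not given in the sources used here. Groups came from the sample labels. Counts were scaled with TMM factors of edgeR 4.0.16 in R 4.3.3 (PBS-WT 1.075, PBS-HPS1 1.27, BLEO-WT 0.895, BLEO-HPS1 0.816) and log2 CPM had a prior count of 2. With 1 library per group, a fit of the groups has no residual degrees of freedom, and no test was run. GENCODE M21 gave positions, and the transcript length and GC content of 14813 of the 14840 tested genes. The correction subtracted a loess fit (span 0.3) of the log2 ratios on GC content and log2 length and added back the mean of the fit. The alternatives were DESeq2 1.42.0 size factors, total counts, this correction, a log2 threshold of 2, prior counts of 0.5 or 10, and either no filter or a minimum of 10 counts in each library, with TMM factors computed again from the genes that passed it. A correction with the median of the fit added back was computed first, and was kept as an alternative chosen after seeing the data. The steps were run on counts simulated with set changes and counting noise alone, with and without a bias from GC content and length. Such counts hold no differences between mice or in cell mix, so they cannot show how far single libraries vary. The members and lists were chosen with earlier results of these data known. Other iron and haem genes are named where they had the highest mean CPM of their role, or were among the 3 largest increases or decreases past 2-fold in a comparison and reached 10 CPM in 1 of its libraries. Nearest profiles are given for members whose log2 CPM ranged over at least 1.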

Additional observations from a re-analysis of the deposited data

How the results depend on the processing

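Of 216 log2 ratios of the 9 genes recomputed under other settings, 16 changed sign. Among these were 108 for the 18 of 36 ratios past 2-fold, of which 2 changed sign. With the median of the loess fit added back, an alternative chosen after seeing the data, *Slc40a1* in BLEO-HPS1 against PBS-HPS1 was at 0.0937 and *Tfrc* at 0.0178. In BLEO-WT against PBS-WT the count of genes past 2-fold went from 5 to 2 with total counts alone, to 3 with a minimum of 10 counts in each library, for which the TMM factors were computed again, and to 1 with either centring of the correction for GC content and length. With either centring it also went to 1 from 8 in BLEO-HPS1 against PBS-HPS1 and to 1 from 4 in BLEO-HPS1 against BLEO-WT. A log2 threshold of 2, stricter by construction, left 0 in PBS-HPS1 against PBS-WT, 0 in BLEO-WT against PBS-WT, 0 in BLEO-HPS1 against PBS-HPS1 and 1, *Cd163*, in BLEO-HPS1 against BLEO-WT. The cause was not tested for the other changes. The counts under DESeq2 size factors, prior counts of 0.5 and 10 and no filter lay within 1.5 times those given. No paired analysis was possible because no label pairs the libraries, and an additive fit of genotype and treatment over the 4 libraries was not run. Depth sets the counting intervals.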
